A study of Mus musculus with 13 samples.

Results

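The genes described here are 7 transcripts that are read as responses to transforming growth factor beta (TGF-beta) in fibroblasts. They are 4 genes of the contractile actin apparatus (Acta2, Tagln, Cnn1 and Myl9) and 3 genes of secreted matricellular proteins (Ctgf, Cyr61 and Thbs1). They were taken by symbol from a table of 15176 genes, and all 7 were present and passed the filter on low values. The 7 genes were chosen with earlier results of these data known. The libraries follow mouse fibroblasts through reprogramming towards pluripotency with small molecules instead of transgenes, and each gene was asked for its level at the start, in cells under the compounds, and in pluripotent cells.

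RNA was sequenced in 13 libraries of 6 groups. Untreated mouse embryonic fibroblasts (MEF, strain C57xICR, n = 3) were the start. Cells without signal from an Oct4-GFP reporter came from C57xICR cultures under the compound mix VC6TF (GFP-negative, n = 2). Clusters and colonies labelled positive for the reporter, also C57xICR, were under VC6TF plus Z and had 1 library each. All 3 kinds of sample were picked from their cultures before RNA was isolated. Untreated R1 embryonic stem cells (ESC, strain 129, n = 4) and 2 pluripotent lines derived with compounds, numbers 6 and 11 (CiPSC, C57xICR, VC6TFMB plus Z), were kept on feeder layers of mitomycin C-treated MEF. The VC6TF mix holds an inhibitor of the TGF-beta type I receptor, as is known of this reprogramming method. No group received the mix without that inhibitor, or the inhibitor alone, so its share in any difference and that of the other compounds cannot be told apart, and the length of treatment is not given in the labels. The untreated MEF were grown in serum, and the medium of the treated cells is not given in the labels either.

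TGF-beta binds a pair of membrane kinase receptors, and the type I receptor then phosphorylates Smad proteins that move to the nucleus and turn on target genes at CAGA-type elements. In fibroblasts the same signal, together with cell spreading and tension, drives the myofibroblast programme. Actin polymerisation frees the cofactors of serum response factor (SRF), which binds CArG boxes in contractile genes, and the YAP coactivators act through TEAD factors on genes such as Ctgf and Cyr61. Pluripotent cells carry little of this contractile machinery.

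RPKM, which are reads per kilobase scaled by library depth, were on 2 length scales. Gene span, introns included, was the length in 10 libraries, whose estimated depth was 8.88 to 17.72 M reads. The remaining 3, CiPSC line 6, CiPSC line 11 and ESC replicate 4, were on the scale of exon length. Their levels are compared only with one another, so ESC below means replicates 1 to 3 unless replicate 4 is named. The model behind the p-values held all 13 libraries, so the spread between the CiPSC lines entered every test. The pluripotency gene Pou5f1, which encodes Oct4, was 0.0512 ± 0.0887 RPKM in MEF (SD, n = 3), 0.31 ± 0.169 in GFP-negative cells (n = 2) and 111 ± 35.5 in ESC (n = 3). It was 124 RPKM in the colonies but 0.26 in the clusters, which are labelled as Oct4-GFP positive. Fibroblast markers (9 of 12 measured) summed to 427 to 507 RPKM in MEF, 238 to 308 in GFP-negative cells, 214 in the clusters, 58.5 in the colonies and 11.8 to 33.1 in ESC. Genes of this list moved in both directions. Vim was 156 to 223 RPKM in MEF but 22.8 and 39 in GFP-negative replicates 1 and 2. Twist1 (19.5 to 34.4 in MEF, 59.6 and 82 in these replicates) and Pdgfra (6.17 to 7.21, 11 and 13.7) were higher in both. Macrophage and blood markers (4 of 6 measured) summed to 188 RPKM in MEF replicate 3 against 18.1 and 29.3 in the other MEF, and to 0.27 to 1.55 in GFP-negative cells. Striated muscle markers (8 of 8 measured) summed to at most 1.84 RPKM in any gene-span library. In bulk RNA, fewer cells of a type and less RNA per cell cannot be told apart. Nothing in the labels says that replicates came from separate cultures, so p-values measure the spread between these libraries.

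The start regions of 4 of the 7 genes were taken from RefSeq (GRCm38.p6, 250 bases before to 50 after the annotated start) and are shown because they carry the letters to which the pathways above are tied. Capitals mark CArG boxes, CC then 6 core bases then GG, with A or T at each core position or with 1 core base G or C, and the TEAD letters GGAATG or their reverse complement CATTCC. The windows are chr19:34255324-34255623 (minus strand) for Acta2, chr2:156775214-156775513 (plus) for Myl9, chr9:22099003-22099302 (plus) for Cnn1 and chr3:145649936-145650235 (minus) for Cyr61, whose RefSeq symbol is Ccn1.
Acta2: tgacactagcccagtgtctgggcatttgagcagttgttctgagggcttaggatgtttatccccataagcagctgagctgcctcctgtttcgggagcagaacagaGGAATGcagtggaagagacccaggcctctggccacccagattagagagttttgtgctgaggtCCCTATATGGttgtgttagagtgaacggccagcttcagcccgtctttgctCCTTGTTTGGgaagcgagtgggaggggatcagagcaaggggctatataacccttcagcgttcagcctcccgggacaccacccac
Myl9: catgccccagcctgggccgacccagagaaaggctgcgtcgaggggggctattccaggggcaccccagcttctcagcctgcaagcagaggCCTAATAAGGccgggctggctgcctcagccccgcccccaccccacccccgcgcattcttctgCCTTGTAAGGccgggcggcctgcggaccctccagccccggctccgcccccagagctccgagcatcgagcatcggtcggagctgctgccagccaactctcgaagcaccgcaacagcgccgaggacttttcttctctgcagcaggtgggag
Cnn1: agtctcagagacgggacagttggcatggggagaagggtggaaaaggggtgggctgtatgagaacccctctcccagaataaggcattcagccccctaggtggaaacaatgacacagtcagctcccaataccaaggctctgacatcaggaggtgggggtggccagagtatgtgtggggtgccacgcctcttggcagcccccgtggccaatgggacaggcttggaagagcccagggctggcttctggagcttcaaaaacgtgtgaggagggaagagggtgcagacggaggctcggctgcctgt
Cyr61: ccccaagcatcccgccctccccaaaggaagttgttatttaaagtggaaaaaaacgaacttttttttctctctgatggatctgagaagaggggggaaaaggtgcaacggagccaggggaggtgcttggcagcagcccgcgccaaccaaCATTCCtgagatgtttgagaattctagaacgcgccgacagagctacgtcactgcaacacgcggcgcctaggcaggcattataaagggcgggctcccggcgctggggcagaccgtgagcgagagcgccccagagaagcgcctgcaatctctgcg
Acta2 held a pair of CArG boxes with 1 G or C in the core, CCCTATATGG from 84 to 75 bases before the start and CCTTGTTTGG from 34 to 25 before it. Myl9 held the strict box CCTAATAAGG from 161 to 152 bases before the start and the looser CCTTGTAAGG from 99 to 90 before it. A strict box was found on either strand in 1.63% of 32851 RefSeq promoter windows of this length, and one with 1 core G or C in 8.5%. GGAATG lay 146 to 141 bases before the Acta2 start, and CATTCC lay 103 to 98 before that of Cyr61, against 14.7% of windows with either. The Smad letters CAGAC, left in lower case, were in the Acta2, Cnn1 and Cyr61 windows and in 49.6% of all windows. The Cnn1 window held none of the capitalised motifs. Distances count from the RefSeq start, which for Acta2, Myl9 and Cnn1 lies inside the gene coordinates given below, taken from GENCODE. A match is a run of letters and was not tested as a site.

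Acta2 encodes smooth muscle alpha-actin, the standard mark of myofibroblasts (chr19:34241090-34255590 on GRCm38, minus strand). It was 171 RPKM in MEF replicate 1, 171 in replicate 2 and 65.2 in replicate 3. GFP-negative replicates 1 and 2 had 1.97 and 9.68 RPKM. Each GFP-negative library lay far below each MEF library, with replicate 2 of the treated cells 4.91 times replicate 1. The means were 136 ± 61.3 RPKM in MEF and 5.83 ± 5.45 in GFP-negative cells, 23.3-fold lower, and the change on the log2(RPKM + 1) scale was −4.47 ± 0.62 (SE; limma adjusted p = 0.0034, Benjamini-Hochberg over 10647 genes). This scale adds 1 RPKM to each value and so understates the change of low genes.

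Tagln encodes transgelin, an actin-bundling protein of smooth muscle and stressed fibroblasts (chr9:45929619-45936058, minus strand). MEF replicates 1, 2 and 3 had 241, 178 and 57.3 RPKM. In GFP-negative cells it was 0.225 RPKM, an estimated 16 reads, in replicate 1 and 1.63 RPKM in replicate 2. No other of the 7 genes was reduced by so large a ratio of means, 172-fold (159 ± 93.5 against 0.925 ± 0.991 RPKM). Its log2 change was −6.25 ± 0.63 (limma adjusted p = 0.00064).

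Myl9 encodes the regulatory light chain of smooth muscle and non-muscle myosin (chr2:156775420-156781658, plus strand). It had 37.6, 45.7 and 27.4 RPKM in MEF replicates 1, 2 and 3, the narrowest relative spread among the abundant members. GFP-negative replicate 1 had 6.02 and replicate 2 had 2.96, so that here replicate 1 was the higher by 2.03 times. The fall was 8.21-fold, a log2 change of −2.81 ± 0.34 (limma adjusted p = 0.00158).

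Cnn1 encodes calponin 1, an actin-binding inhibitor of myosin ATPase (chr9:22099216-22109630, plus strand). It was low from the start, at 1.47, 1.29 and 1.02 RPKM in MEF replicates 1, 2 and 3. The treated libraries split, with 0.0175 RPKM in GFP-negative replicate 1 and 3.35 in replicate 2. The first value stands for an estimated 2 reads (exact 95% Poisson interval 0.00211 to 0.0629 RPKM, counting error only) and the second for 359 reads, so one treated library lay below all MEF and the other above all MEF. The log2 change was −0.10 ± 0.49 (95% interval −1.20 to 1.01, limma adjusted p = 0.933). Without replicate 1 of the treated cells it was 0.95 with an adjusted p of 0.0295, and without replicate 2 it was −1.15 with an adjusted p of 0.00789, so 1 library decides its sign.

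Ctgf encodes connective tissue growth factor (CCN2), a secreted protein and a shared target of Smads and YAP (chr10:24595442-24598683, plus strand). It differed most within MEF, at 641 and 659 RPKM in replicates 1 and 2 but 52.5 in replicate 3. GFP-negative replicates 1 and 2 had 1.42 and 11.2 RPKM. Even the lowest MEF library lay above the highest treated one. From means of 451 ± 345 and 6.33 ± 6.94 RPKM the ratio was 71.3, and the log2 change was −5.70 ± 1.09 (limma adjusted p = 0.0149). The call was lost without GFP-negative replicate 1 (log2 change −4.53, adjusted p = 0.0901).

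Cyr61 encodes the related matricellular protein CCN1 (chr3:145646976-145649981, minus strand). Its RPKM were 410, 410 and 181 in MEF replicates 1, 2 and 3. GFP-negative replicate 1 had 18.4 RPKM and replicate 2 had 60.9, which left it clearly expressed under the mix. It fell 8.42-fold, with a log2 change of −3.18 ± 0.77 (limma adjusted p = 0.0372). Fitted with the 10 gene-span libraries alone, Cyr61 was not called (limma adjusted p = 0.065). The call is near the threshold: without GFP-negative replicate 1 the log2 change was −2.34 and the adjusted p was 0.187, and without MEF replicate 1 or 2 the adjusted p was 0.098 or 0.099.

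Thbs1 encodes thrombospondin 1, a secreted glycoprotein that also activates latent TGF-beta (chr2:118111876-118127133, plus strand). In MEF it was 759 RPKM in replicate 1, 703 in replicate 2 and 122 in replicate 3. Both treated libraries were alike, at 38.7 and 50.4 RPKM. They lay below all MEF by 11.9-fold in the means, but the change of −3.16 ± 0.88 did not pass (95% interval −5.16 to −1.16, limma adjusted p = 0.059). Without MEF replicate 3, the library with the low Thbs1 and the high macrophage markers, it was −4.02 with an adjusted p of 0.0103. The part of those markers in the result was not tested.

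Of the list, 5 of the 7 genes were called lower in GFP-negative cells than in MEF and none higher, where 4.09% of all tested genes were called lower and 3.53% higher. A gene was called when its adjusted p was under 0.05 and its log2 change was at least 1 in size. With the 10 gene-span libraries alone in the fit, 4 of the 7 were called lower, without Cyr61. For 6 of the 7 both treated libraries lay below all MEF libraries, as they did for 27.1% of all tested genes. The median log2 change of the 7 was −3.18, against −0.13 over all tested genes. Because of how the 7 were chosen, such contrasts with all tested genes, here and below, describe them and lend no independent support. Within MEF, replicate 3 was the lowest library for each of the 7, from 1.37 times (Myl9) to 12.2 times (Ctgf) below replicate 1. Tagln, Ctgf and Thbs1 overlap annotated transcripts on the opposite strand (for Tagln also the end of the protease gene Pcsk7), and since strand handling is not given in the sources used here, reads of the partners cannot be told apart.

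**Figure D1:**
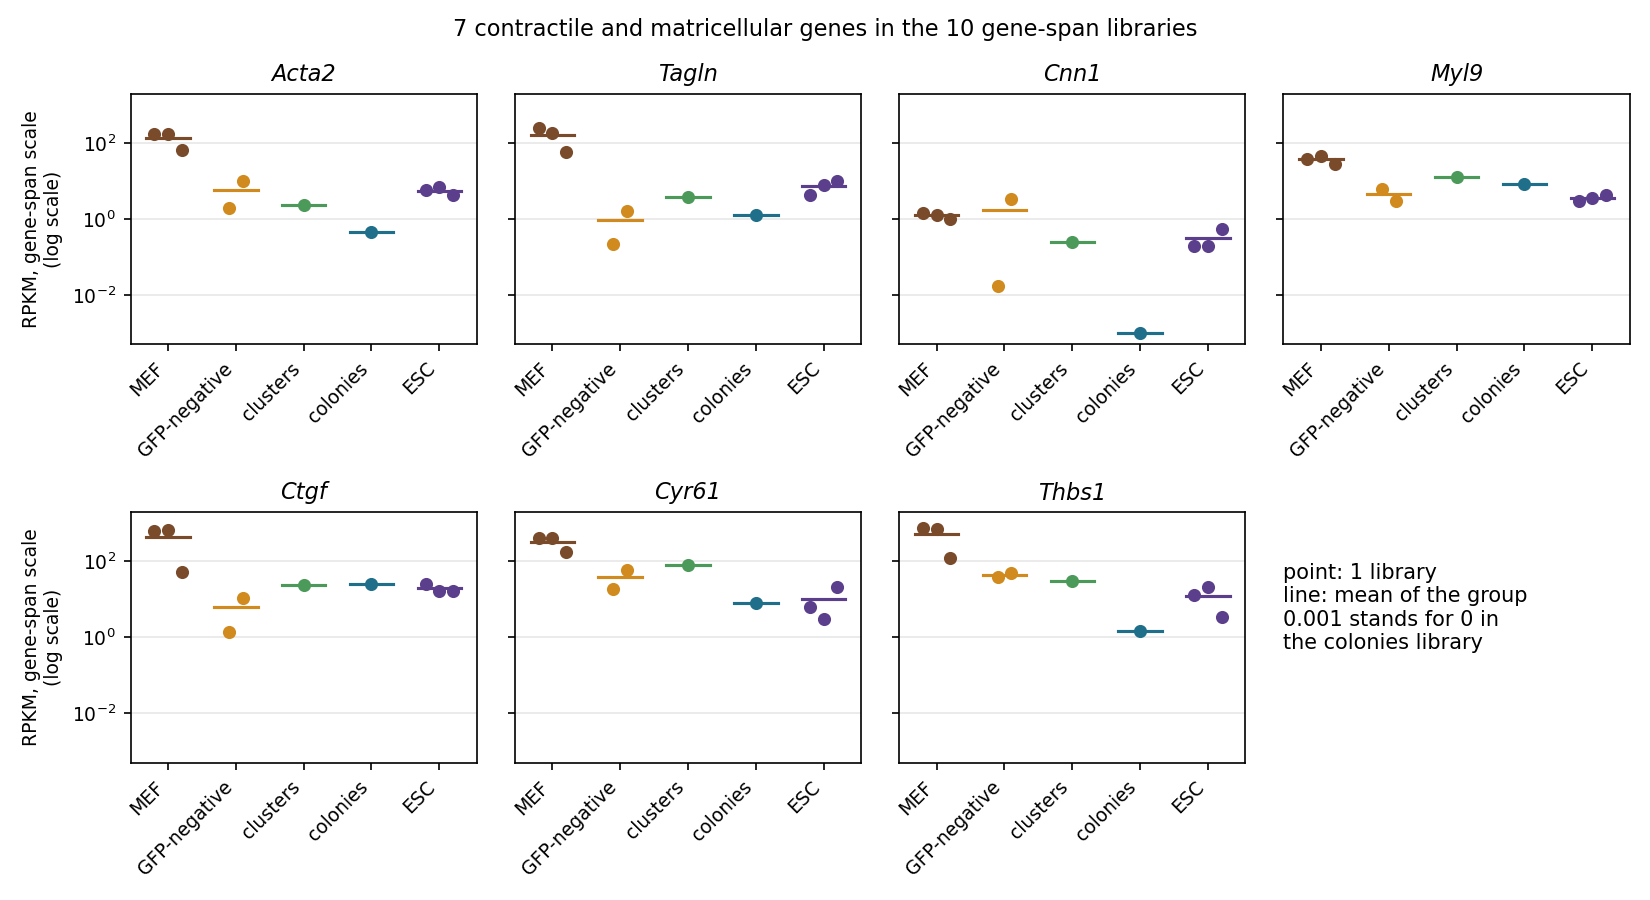
RPKM on the gene-span scale (log axis) of each gene in the 10 gene-span libraries; points are libraries, lines are group means, and 0.001 stands for 0 in the colonies. Every MEF point lies above every GFP-negative point except for Cnn1, whose GFP-negative points at 0.0175 and 3.35 RPKM enclose the MEF.

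ESC set the level that pluripotent cells of another strain show, and 6 of the 7 genes were lower there than in MEF, against 7.97% of all tested genes called lower and 7.95% called higher. All 7 had every ESC library below every MEF library, which held for 16.7% of tested genes. Acta2 was 5.68, 6.85 and 4.19 RPKM in ESC replicates 1, 2 and 3, a change of −4.27 ± 0.55 (limma adjusted p = 0.00106). Tagln was 4.29, 7.90 and 9.73 RPKM (−4.10 ± 0.56, adjusted p = 0.00143), and Myl9 was 2.98, 3.52 and 4.38 RPKM (−3.02 ± 0.30, adjusted p = 0.000285). ESC libraries thus differed by at most 2.27 times for these 3 genes. Cnn1 stood at 0.196, 0.199 and 0.559 RPKM and was not called (−0.78 ± 0.43, 95% interval −1.77 to 0.20, adjusted p = 0.226).

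The matricellular genes spread more among ESC. Cyr61 was 6.21, 3.10 and 21.8 RPKM in replicates 1, 2 and 3 (−5.16 ± 0.69, limma adjusted p = 0.00123). Thbs1 was 12.8, 21.3 and 3.45 RPKM (−5.18 ± 0.79, adjusted p = 0.00226). Replicate 3 was thus the highest ESC library for Cyr61 and the lowest for Thbs1. Ctgf was 25.2, 17.1 and 16.3 RPKM (−3.81 ± 0.97, adjusted p = 0.0229), and this call was lost when any 1 of ESC replicates 1 to 3 or of MEF replicates 1 and 2 was left out, with adjusted p up to 0.0806. The median of the 7 was −4.10, against 0.14 over all tested genes. Feeder MEF under the ESC could add reads of these genes, and fibroblast markers in ESC summed to 11.8 to 33.1 RPKM against 427 to 507 in MEF. Most of each ESC sum was Vim, at 12.9, 7.81 and 28.8 RPKM in replicates 1, 2 and 3. The part of feeder MEF in the ESC levels was not tested.

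GFP-negative cells were then set directly against ESC, to ask whether the treated cells stood above or below the pluripotent level. Tagln was called lower in GFP-negative cells than in ESC, 7.9-fold in the means (−2.15 ± 0.63, limma adjusted p = 0.0315). Of the 7 it was the one gene called lower, where 14.3% of all tested genes were, and no member was called higher, where 8.35% were; at an unadjusted p under 0.05 limma had 1 lower and 2 higher. The Tagln call was lost without ESC replicate 2 or 3, with upper-quartile scaling and with a replicate block (limma adjusted p up to 0.0852). It was also lost without GFP-negative replicate 1, where the log2 change was −1.6. Cyr61 was 3.82 times its ESC mean (1.98 ± 0.77, adjusted p = 0.0818) and Thbs1 3.55 times (2.02 ± 0.88, adjusted p = 0.111). Without ESC replicate 3 Cyr61 was called higher (2.67, adjusted p = 0.0218). With only the 7 libraries that carry exact 0, Cyr61 (2.67, adjusted p = 0.0326) and Thbs1 (1.36, adjusted p = 0.038) were called higher, and without GFP-negative replicate 1 so was Cnn1 (1.73, adjusted p = 0.0012).

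The other members did not differ from ESC by a called amount. Ctgf had a change of −1.89 ± 1.09 (95% interval −4.37 to 0.59), Acta2 of −0.20 ± 0.62 (−1.61 to 1.20), Myl9 of 0.20 ± 0.34 (−0.57 to 0.97) and Cnn1 of 0.69 ± 0.49 (−0.42 to 1.79), with limma adjusted p from 0.213 to 0.824. These intervals leave room for differences of more than 2-fold for Acta2, Ctgf and Cnn1 and of just under that for Myl9. In libraries, Tagln and Ctgf lay below all ESC in both treated samples (37.6% of all tested genes did) and Thbs1 above all ESC (17.6%). For Acta2 the sign of the change turned without GFP-negative replicate 1 (0.72), as it did for Myl9 (−0.21), and for Cnn1 without replicate 2 (−0.36). The 3 comparisons share their libraries pairwise and are not independent of one another.

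**Figure D2:**
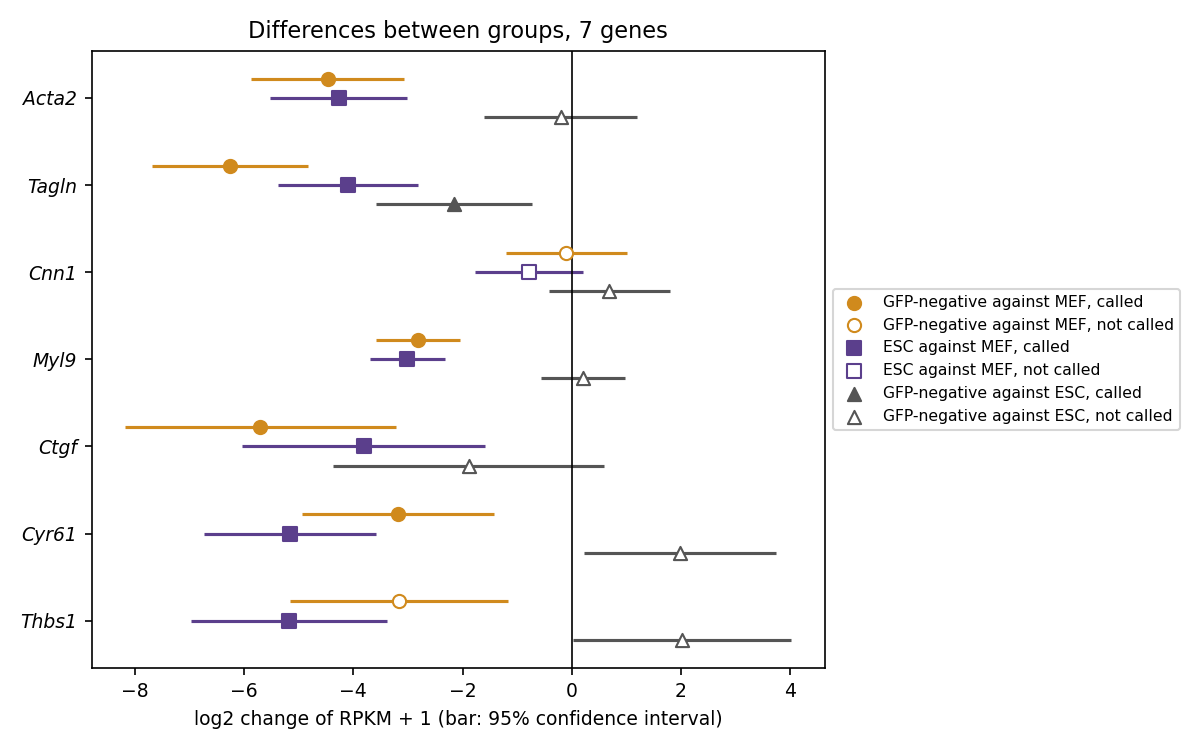
Change in log2(RPKM + 1) for GFP-negative against MEF, ESC against MEF and GFP-negative against ESC, with 95% confidence intervals; filled symbols are called. Tagln is the one gene with a filled symbol in all 3 comparisons, and Cnn1 has none.

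The Oct4-GFP-positive clusters had 1 library, so their values carry no test. Tagln was 3.87 RPKM there, above both GFP-negative libraries and below all ESC. Ctgf was 24.4 RPKM and Cyr61 82.6 RPKM, both above both GFP-negative libraries, and Myl9 was 12.6. These 4 genes were higher than the GFP-negative mean by 1 or more on the log2 scale, as were 11.4% of all tested genes. Thbs1 was 30.5 RPKM, below both GFP-negative libraries, while Acta2 at 2.38 and Cnn1 at 0.249 RPKM (an estimated 23 reads) lay between them.

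Against MEF, 6 of the 7 genes were lower in the clusters by 1 or more on the log2 scale, where 19.7% of all tested genes were, and all 7 lay below every MEF library. The differences ran from −5.21 for Acta2 and −4.81 for Tagln to −1.91 for Cyr61, −1.45 for Myl9 and −0.85 for Cnn1, with a median of −3.48 against −0.24 for all tested genes. Against ESC, Myl9, Cyr61 and Thbs1 were above every gene-span library and Acta2 and Tagln below. Endothelial markers (4 of 6 measured) summed to 24.6 RPKM in this library, against 0.261 to 1.18 in MEF, GFP-negative cells and ESC. That sum was Kdr alone, a VEGF receptor gene at 24.6 RPKM, while the defining markers Pecam1, Cdh5 and Tek were at or under 0.1 RPKM. The colonies had a sum of 6.13 RPKM, of which Cdh5 was 5.42.

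The Oct4-GFP-positive colonies, again 1 library, had the lowest Acta2 of the 10 libraries at 0.44 RPKM and the lowest Thbs1 at 1.48 RPKM. Cnn1 was listed at 0.001, which stands for 0 reads in this library. A count of 0 allows up to 0.0288 RPKM at a floor of 3 reads (0.0354 as the exact 95% Poisson bound), for counting error only, so no fold is given. All 7 genes were lower than the MEF mean by 1 or more on the log2 scale, against 7.3% of all tested genes, with a median of −5.08 beside 0.07 for all tested genes. Thbs1 had the largest difference at −7.35, followed by Acta2 at −6.44, Tagln at −5.89 (1.3 RPKM) and Cyr61 at −5.08 (8.26 RPKM).

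Myl9, at 8.51 RPKM in the colonies, was above all gene-span ESC. Ctgf was 25.8 RPKM, beside 25.2 in the highest ESC library, whereas Acta2, Tagln, Cnn1 and Thbs1 were below all of them and Cyr61 lay among them. Between the clusters and the colonies, Thbs1 differed 20.6-fold and Cyr61 10-fold, and Acta2 and Tagln by −1.23 and −1.08 on the log2 scale; these 4 were lower in the colonies by 1 or more, as were 12.6% of all tested genes. Ctgf was level between them, with a difference of 0.08. The colonies, MEF replicate 3 and ESC replicate 3 carry 0.001 in place of 0, unlike the other gene-span libraries, and beside MEF replicate 3 alone the median was −4.30 and the difference for Ctgf −1.0. Fibroblast markers summed to 58.5 RPKM in the colonies and 214 in the clusters, and pluripotency markers (10 of 10 measured) to 650 and 1.53. Dppa5a at 513 RPKM and Pou5f1 at 124 made up most of the sum in the colonies. Nanog and Fgf4 were at or under 0.1 RPKM there, against 51.7 to 55.4 and 33.6 to 53.3 in gene-span ESC. The part of either marker list in these differences was not tested.

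**Figure D3:**
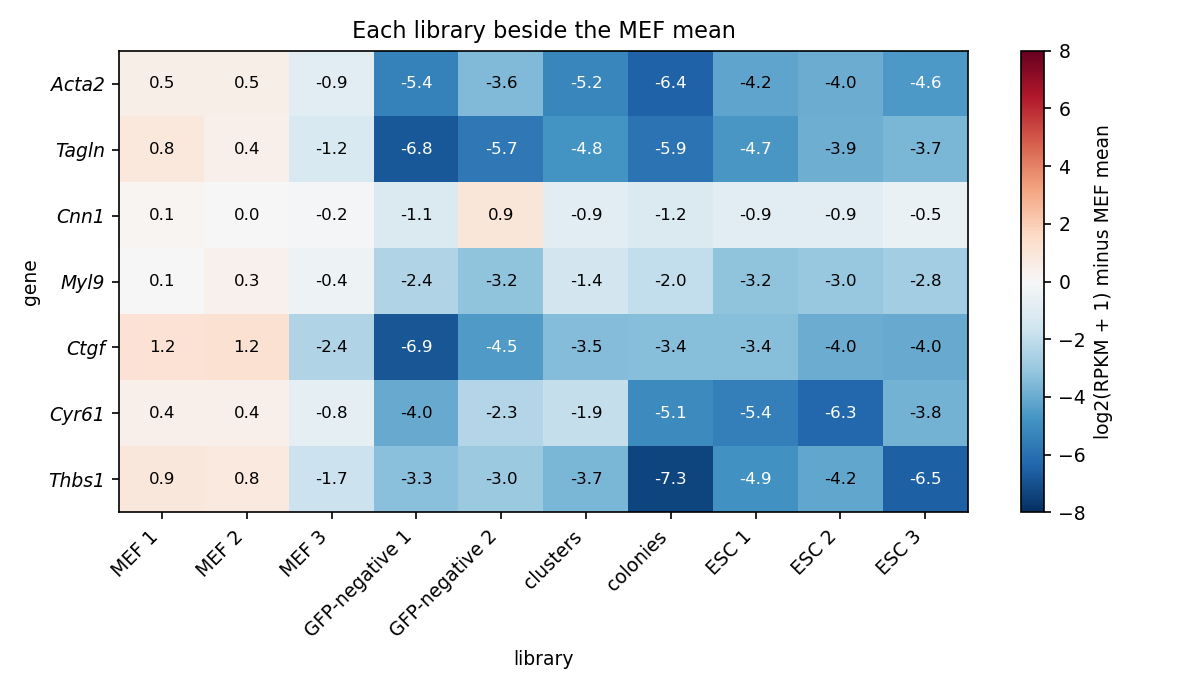
Difference of each gene-span library from the MEF mean in log2(RPKM + 1), one row per gene and one column per library, blue for lower and red for higher. GFP-negative replicate 2 has the one positive value outside MEF (Cnn1), and the colonies have the lowest values for Acta2 and Thbs1.

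Levels can be set between genes only per length, so the gene-span values were rescaled to RPKM per kilobase of exon for the 10 libraries. On that scale MEF were led by Thbs1 at 1326 ± 886 and Acta2 at 897 ± 405, then by Tagln at 515 ± 303, Ctgf at 511 ± 391 and Cyr61 at 497 ± 197, with Myl9 at 198 ± 49.1 and Cnn1 at 4.8 ± 0.846 (SD, n = 3). Neighbours in the first 5 places did not differ beyond their SD, while Cnn1 stood apart. In GFP-negative cells Thbs1 still led at 112 ± 21.1 (n = 2), followed by Cyr61 at 59 ± 44.7, Acta2 at 38.5 ± 36 and Myl9 at 24.1 ± 11.6. Tagln took the last place there at 3 ± 3.21, below Ctgf at 7.15 ± 7.84 and Cnn1 at 6.38 ± 8.93, and these 3 overlapped. The clusters were led by Cyr61 at 123, and the colonies by Myl9 at 45.7 and Ctgf at 29.2, with Thbs1 at 3.72 and Acta2 at 2.91. In ESC 6 of the 7 lay between 15.5 (Cyr61) and 36.8 (Acta2), each overlapping its neighbours in the order within their SD, and Cnn1 was at 1.21 ± 0.795. Acta2 lay above Myl9 (19.5 ± 3.78) in each ESC library.

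Across the 10 gene-span libraries the members moved together to different degrees. Acta2 and Tagln had a Pearson r of 0.94 in log2(RPKM + 1), Tagln and Ctgf 0.92, and Acta2 and Thbs1 0.9, whereas Cnn1 had 0.26 to 0.65 with the others. Among 2673 other genes reaching 10 RPKM, the 6 most like the mean profile of the 7 were the focal adhesion gene Vcl (r = 0.952), the chemokine gene Cxcl12 (0.951), Gm22 (0.951), the calponin relative Cnn2 (0.943), the collagen cross-linking enzyme gene Lox (0.934) and the myosin gene Myo1c (0.931). These are descriptions over 10 libraries that share their groups,, and no p is given for them. Vcl, for example, was 2.85 to 10.2 RPKM in MEF and 0.224 to 2.07 in the other 7 libraries.

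The CiPSC lines and ESC replicate 4, on the exon scale, were compared with one another. All 7 genes were lower in both lines than in ESC replicate 4, an order that 41.3% of all tested genes showed with this single ESC library. Acta2 was 1.22 RPKM in line 6, 0.311 in line 11 and 12.3 in ESC replicate 4. The change was −2.96 with a 95% interval of −4.85 to −1.08, and it did not pass (limma adjusted p = 0.419). Thbs1 was 0.265, 0.0754 and 10.8 RPKM in the same order, 63.4-fold lower in the mean of the lines (−3.34 ± 1.18, 95% interval −6.02 to −0.65, adjusted p = 0.706). No member was called by limma, where 0.0376% of all tested genes were called lower. At an unadjusted p under 0.05 in the same fit there were 2, Acta2 and Thbs1.

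The remaining members were closer among the 3 libraries. Tagln was 3.10, 2.13 and 7.58 RPKM in line 6, line 11 and ESC replicate 4, Ctgf 3.39, 3.43 and 8.16, and Cnn1 0.389, 0.336 and 0.856. Myl9 was 2.80, 2.67 and 4.70 RPKM, 1.72-fold lower in the mean of the lines, and Cyr61 was 4.14, 3.96 and 4.56 RPKM, 1.13-fold lower. The median change of the 7 was −1.05, against 0.02 over all tested genes. ESC replicate 4 also had more fibroblast marker RNA, with a sum of 92 RPKM against 42.8 and 49.1 in the lines. Most of each sum was the vimentin gene Vim, at 89.3 RPKM in ESC replicate 4 and 41.6 and 48 in lines 6 and 11, and Col6a1, Col6a2, Pdgfra, Prrx1 and Fap were at or under 0.1 RPKM in the lines. The part of feeder cells in these differences was not tested.

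**Figure D4:**
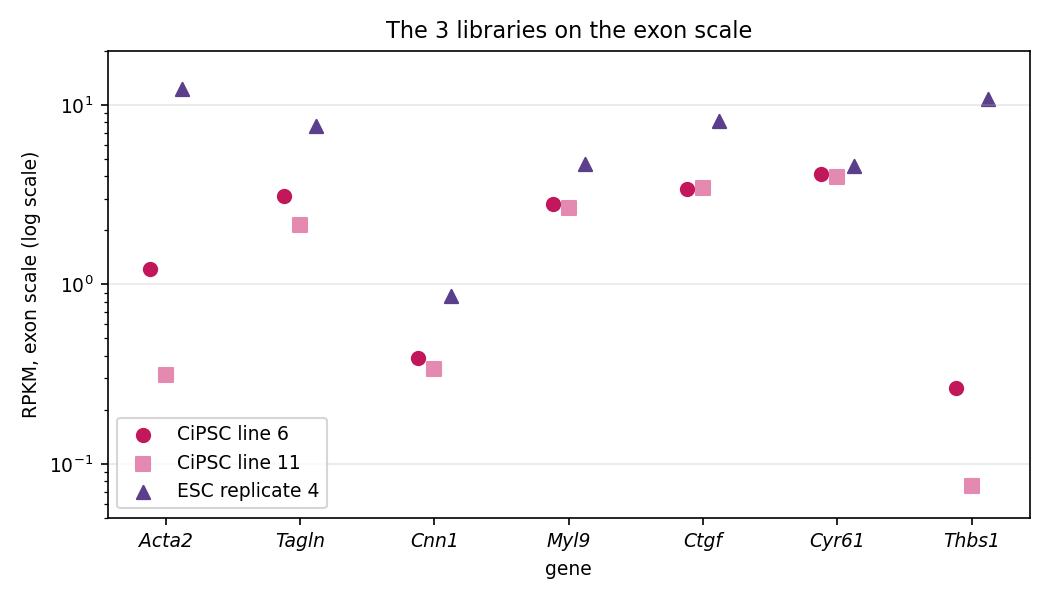
RPKM on the exon scale (log axis) of each gene in CiPSC line 6, CiPSC line 11 and ESC replicate 4, one symbol per library. ESC replicate 4 is highest for each gene, with the widest gaps for Thbs1 and Acta2 and the narrowest for Cyr61.

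Of 106 further genes of the pathways in 8 lists, 102 were in the table and 91 were tested. In GFP-negative cells 24 of the 91 were called lower than in MEF and 4 higher, and in ESC 49 were called lower and 1 higher, beside the shares of all tested genes given above. Against ESC, GFP-negative cells had 4 of them lower and 26 higher. No list gene was called between CiPSC and ESC replicate 4 by limma, with 8 lower and 0 higher at an unadjusted p under 0.05. The lists were chosen with earlier results of these data known and lend no independent support.

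Among smooth muscle and actin-binding genes, 4 of 14 tested were lower in GFP-negative cells than in MEF, with a list median of −1.20 beside −0.13 for all tested genes. Smtn, encoding smoothelin, fell from 4.09 ± 3.99 to 0.0391 ± 0.0277 RPKM (−2.02 ± 0.51, limma adjusted p = 0.0442), and the enteric actin gene Actg2 from 1.87 ± 0.765 to 0.00207 ± 0.00293 RPKM. The actin cross-linkers Actn1 (−1.82) and Flna (−1.55) also fell. Tpm1, a tropomyosin gene, was 28.4 ± 10.2 RPKM in MEF and 9.82 ± 0.204 in GFP-negative cells and was not called (−1.37, adjusted p = 0.0984). The small heat shock protein gene Cryab, also not called there, was 75.7 RPKM in the clusters against 18.7 to 26 in MEF.

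Cytoskeletal relatives of the contractile members had 3 of 11 lower, with a median of −1.3. The general actin gene Actb, often taken as a reference gene, fell from 1037 ± 374 to 295 ± 16 RPKM (−1.74 ± 0.37, limma adjusted p = 0.022), and the myosin genes Myl6 (−1.89) and Myh10 (−1.3) fell as well. Cnn2 was 40.2 to 75.9 RPKM in MEF and 1.41 and 19.4 in GFP-negative replicates 1 and 2 (−3.05 ± 0.85, adjusted p = 0.0589), and Actg1 had a change of −1.77 (adjusted p = 0.118).

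Matricellular relatives of Ctgf, Cyr61 and Thbs1 went both ways, with 3 of 12 lower and 2 higher. Thbs2, the closest relative of Thbs1, rose from 34 ± 1.97 to 102 ± 4.37 RPKM (1.56 ± 0.23, limma adjusted p = 0.00504). Spp1, encoding osteopontin, rose from 17.1 ± 8.65 to 422 ± 46.7 RPKM (4.65 ± 0.66, adjusted p = 0.004). Postn, encoding periostin, fell from 46 ± 8.97 to 4.08 ± 1.56 RPKM, and the CCN family gene Nov from 29.1 ± 5.69 to 8.34 ± 1.67. Tnc, the tenascin C gene, was 28.7 ± 16.8 RPKM in MEF and 69.4 ± 1.7 in GFP-negative cells and was not called (adjusted p = 0.121), and neither was Sparc (−1.43), which stood at 697 RPKM in the colonies. Against ESC, 7 of the 12 were higher in GFP-negative cells and none lower.

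Matrix and protease-inhibitor targets of TGF-beta had 6 of 13 lower in GFP-negative cells, with a median of −1.80, and 11 of 13 lower in ESC. The collagen I genes Col1a2 (−4.94 ± 0.71, limma adjusted p = 0.00414) and Col1a1 (−4.75 ± 0.77, adjusted p = 0.00736) fell most, with Col1a1 at 1824 RPKM in MEF replicate 3 and 338 and 292 in the other MEF, the reverse of the order seen for the 7 genes. Lox fell from 311 ± 147 to 19.8 ± 10.2 RPKM and the proteoglycan gene Bgn from 301 ± 17.9 to 33 ± 2.99. Col3a1, encoding collagen III, had a change of −1.63 and was not called (adjusted p = 0.129).

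Smad-feedback genes had 3 of 9 lower and none higher: Pmepa1 (−1.38 ± 0.20), the corepressor gene Ski (−1.15) and the pseudoreceptor gene Bambi (−1.10), with limma adjusted p of 0.00414, 0.0425 and 0.0346. Id1 was 2.1 and 7.43 RPKM in GFP-negative replicates 1 and 2, 43 in the clusters and 68.9 in the colonies, against 19.9 to 44.1 in MEF, and was not called (adjusted p = 0.0627). Id3 was 2.28 and 38.5 RPKM in the same treated replicates, a split in the direction of Cnn1, and was not called (adjusted p = 0.193).

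Of 11 ligands, receptors and Smads, 1 was lower and 2 were higher, with a median of −0.03. The ligand gene Tgfb3 fell from 10.9 ± 3.1 to 2.07 ± 1.94 RPKM (−2.07 ± 0.39, limma adjusted p = 0.014). The type II receptor gene Tgfbr2 rose from 2.06 ± 0.582 to 6.55 ± 0.365 RPKM (1.32 ± 0.19, adjusted p = 0.00414), and the co-receptor gene Tgfbr3 from 0.625 ± 0.201 to 2.4 ± 0.43 (1.07 ± 0.14, adjusted p = 0.00235). In ESC Tgfbr2 was 0.143 ± 0.0573 RPKM and Tgfbr3 0.0454 ± 0.0151.

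SRF cofactors and targets had 2 of 9 lower, with a median of −0.86. Tgfb1i1, the focal adhesion adaptor Hic-5, fell from 10.9 ± 3.69 to 0.62 ± 0.412 RPKM (−2.85 ± 0.28, limma adjusted p = 0.000588), and Fhl1 fell by 1.58 on the log2 scale. The immediate early genes Egr1 (−0.45, adjusted p = 0.428) and Fos (−1.07, adjusted p = 0.165) were not called, and both were higher in GFP-negative cells than in ESC, Egr1 at 61.9 ± 14.9 against 0.996 ± 0.565 RPKM. YAP and TEAD genes had 2 of 12 lower, with a median equal to that of all tested genes at −0.13. These were Amotl2 (−2.89 ± 0.35, adjusted p = 0.00171) and the factor gene Tead2 (−1.91 ± 0.34, adjusted p = 0.0116), while the receptor kinase gene Axl had a change of 0.11 (adjusted p = 0.84).

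**Figure D5:**
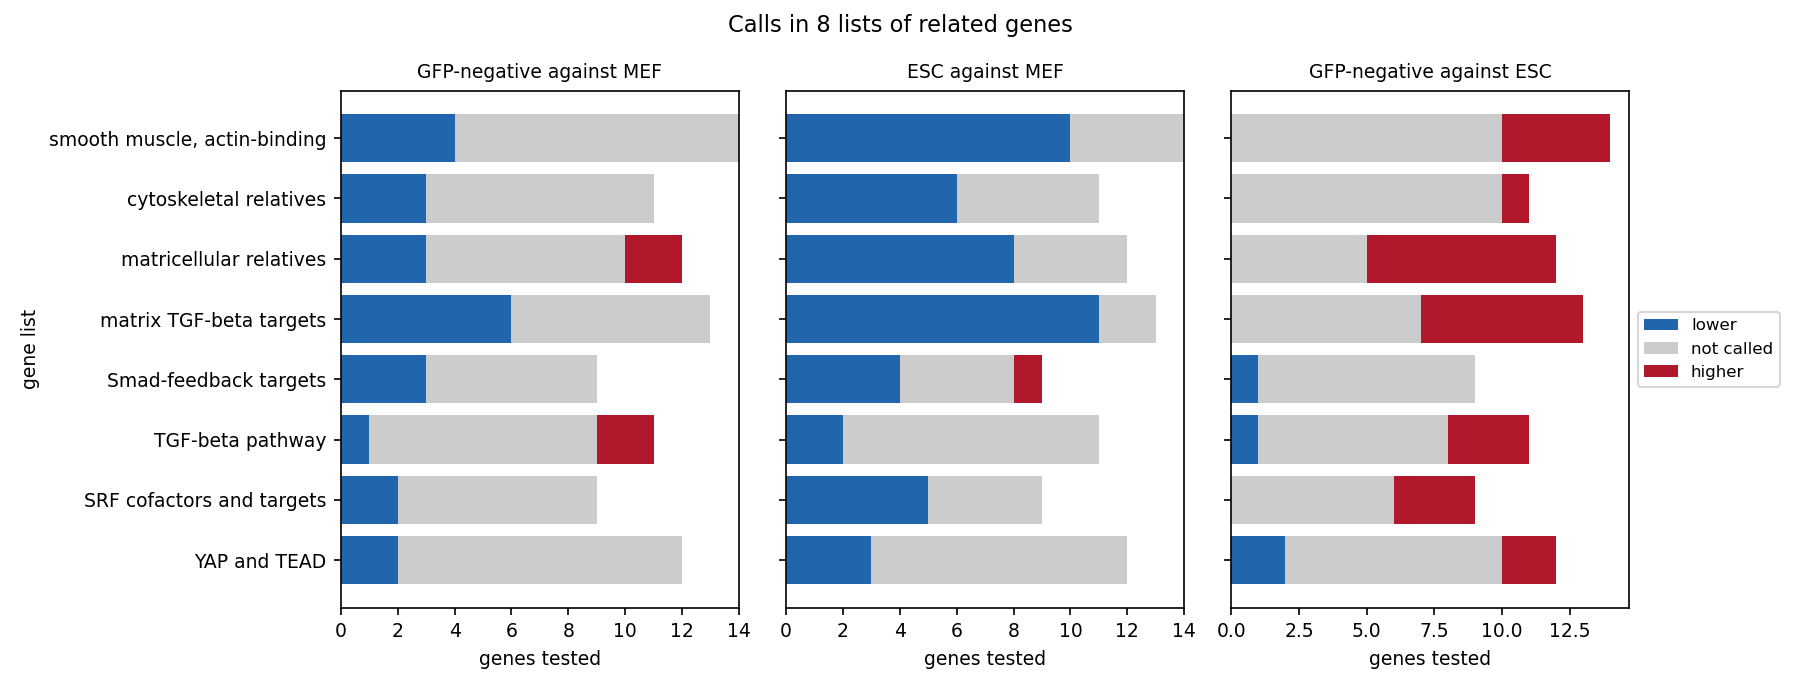
Number of tested genes called lower, not called and called higher in each of 8 lists, for GFP-negative against MEF, ESC against MEF and GFP-negative against ESC. Matrix targets have the most genes called lower against MEF in both comparisons (6 and 11 of 13), and the matricellular relatives the most called higher against ESC (7 of 12).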

How the data were processed

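RNA sequencing of total RNA gave 13 libraries, and the authors deposited 1 table of RPKM holding 1 value per gene and library, per the file headers. The submitters' processing notes name TopHat 1.3.0 and mm9. How reads were counted, with which annotation and lengths, and whether strand was used is not given in the sources used here. Ptprf appeared in 8 of 15184 rows, which were dropped, and no column was unused or identical to another. RPKM multiplied by gene span (GENCODE M21 on GRCm38, used for lengths; 14988 of 15176 genes, 98.8%) gave whole multiples of 1 step for 81.7 to 83.5% of low values in 10 libraries (tolerance 0.05) and 12.6 to 12.9% in the other 3. From the steps followed depth and estimated reads; floors of 3 reads and Poisson bounds cover counting error only.

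Libraries were grouped by their labels. Values were analysed as log2(RPKM + 1) with limma 3.58.1 in R 4.3.3: 1 coefficient per group, a term for the length scale, a trend in the prior variance, all 13 libraries, and the 10647 genes that reached 1 RPKM in 2 libraries or more. Residual degrees of freedom were 6, with 2.58 from the prior. CiPSC against ESC rests on ESC replicate 4 with the spread pooled over groups. The script was tested on simulated data. The closest pair of replicate libraries, MEF 1 and 2, differed by a chi-square of 45.2 per gene, more than sampling noise.

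Named genes were the 7 members, from each list up to 4 genes called between GFP-negative cells and MEF (largest change) and up to 2 not called at 10 RPKM or more in MEF, the 6 genes most like the members' mean, and Pou5f1 and Col1a1. Some markers, not all, were also named after their values were seen. They were at or under 0.1 RPKM, made up most of a marker sum or moved against it. A gene taken under these terms is left unreported. The members and lists were chosen with earlier results of these data known. Markers also covered pluripotent, endothelial and epithelial cells; the epithelial sum (6 of 6 measured) was 0.572 to 3.02 RPKM in MEF, 3.49 to 8.68 in GFP-negative cells, 27.4 in the clusters, 104 in the colonies and 16.6 to 34.1 in ESC. The alternatives were another pseudocount, no filter, upper-quartile scaling, no trend, fewer libraries, a block and leaving out each library.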

Additional observations from a re-analysis of the deposited data

How the results depend on the processing

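Acta2 and Tagln were called lower in GFP-negative cells than in MEF under all 12 alternatives run (log2 changes from −5.40 to −3.55 and from −7.50 to −5.70). Cyr61 lost its call in 6 of 12, Ctgf and Myl9 in 1 each (Myl9 with the block), and Thbs1, not called, passed in 3. In ESC against MEF all calls but that of Ctgf held in 13 alternatives. Members called lower in GFP-negative cells against MEF numbered 5, and 3 to 6 when 1 library was left out (3 without GFP-negative replicate 1). Against ESC 1 member (Tagln) was called lower, 0 to 1 when 1 library was left out, and 0 with upper-quartile scaling. No member was called higher than ESC, but Cyr61 was in 2 alternatives and Cnn1 and Thbs1 in 1 each. Over all genes, 811 were called between GFP-negative cells and MEF, 1391 with a pseudocount of 0.1, 453 with the 10 gene-span libraries alone, 343 with the 7 libraries that carry exact 0, and 562 to 1499 when 1 library was left out (1499 without GFP-negative replicate 2). With that pseudocount the 1695 genes between ESC and MEF became 2590, the 2415 between GFP-negative cells and ESC became 3861, and the 17 between CiPSC and ESC became 3. The last count was 50 with no filter, 9 with no trend, and 10 to 12 without 1 CiPSC line (10 without line 6); leaving out ESC replicate 4 could not be fitted. Directions turned with the GFP-negative library left out: without replicate 1 and replicate 2 respectively, the log2 change was 0.95 and −1.15 for Cnn1 against MEF, and 0.72 and −1.13 for Acta2, −0.21 and 0.61 for Myl9 and 1.73 and −0.36 for Cnn1 against ESC. The cause was not tested. Replicate numbers did not pair the libraries (correlations of deviations −0.04, −0.07 and 0.08); with a replicate block 141, 812 and 1500 genes were called in the 3 gene-span comparisons, 4 members against MEF, and 0 members against ESC. Upper-quartile scaling moved the median of all genes from −0.13 to −0.07 in GFP-negative cells against MEF. Depth limits Cnn1 most, with 0 to 359 estimated reads per library.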
